A study of Rattus norvegicus with 6 samples.

Results

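Endothelial marker genes were examined in cultures of neonatal rat cardiomyocytes, the heart muscle cells most often used to study hypertrophy outside the animal. The rule named 10 genes, Pecam1, Cdh5, Kdr, Flt1, Tek, Tie1, Eng, Vwf, Emcn and Esam, and took the row of the deposited gene table that carried each name. A row was found for 9 of them, each with a single row, among 22250 genes, and all 9 passed the filter on low counts, as did 13903 genes in all. Pecam1 had no row under that name and is not analysed here. The cells were wild-type, were taken from hearts of 1-day-old Sprague-Dawley rats by collagenase digestion and were grown in medium with 10% serum. In 3 libraries they had been exposed for 48 h to 40 µM of 3Cl-HBA, and in the other 3 to the solvent DMSO. The series concerns activation of hydroxycarboxylic acid receptor 1. The labels do not state how many animals or cultures stood behind a library, and they describe no step that removes other heart cells, so p-values measure the spread between these samples, which may be technical.

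Endothelial cells line the vessels and chambers of the heart and are held together by junctions that contain VE-cadherin. They sense vascular endothelial growth factor through tyrosine kinase receptors, respond to angiopoietins through the receptor TIE2, and take up signals of the TGF-beta family with the help of endoglin. Their RNA in a culture of heart muscle cells can come from cells carried over from the digested heart, and in a bulk library fewer such cells and less RNA per cell cannot be told apart. Some of these genes are also active elsewhere: Eng in fibroblasts and macrophages, and Vwf in megakaryocytes and platelets.

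Library totals were 13240800 to 17202191 reads, and TMM scaling factors, which adjust those totals, ran from 0.9947 to 1.005. Levels are given as CPM, the read count relative to the scaled total, and levels compared between genes as deposited FPKM, which also divides by gene length and uses the unscaled total. DMSO replicate 3 stood apart for marker genes of several cell types, as described with the agreement between libraries, and values without it are given there. Heart muscle transcripts were abundant, with the 12 cardiomyocyte markers summing to 26607 to 26995 CPM after 3Cl-HBA and to 26401 to 27890 CPM in DMSO.

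Promoter sequences, 250 bases before and 50 bases after a gene's start, were available from RefSeq (build GRCr8) for 5 of the 9 genes, Kdr, Flt1, Tie1, Eng and Emcn. Endothelial genes are known for binding sites of ETS factors, whose core is GGAA. The sequences of Kdr and Emcn are shown because this pair had the highest Pearson r of log2 CPM over the 6 libraries, and that of Eng because it was the most abundant marker. Capitals mark the longer cores CAGGAA and CCGGAA on either strand. A match of CAGGAA and a match of CCGGAA cannot overlap on the same strand, though CCGGAA can overlap its own reverse complement. Each sequence is written 5′ to 3′ on the strand of the gene.
Kdr (chr14:32571813-32572112, plus strand): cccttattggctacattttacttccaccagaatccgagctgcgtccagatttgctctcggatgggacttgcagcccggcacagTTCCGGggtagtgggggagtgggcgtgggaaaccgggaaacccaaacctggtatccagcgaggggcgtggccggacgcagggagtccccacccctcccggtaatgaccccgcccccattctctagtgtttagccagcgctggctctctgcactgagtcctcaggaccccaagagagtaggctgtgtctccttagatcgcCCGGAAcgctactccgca
Emcn (chr2:228564289-228564588, plus strand): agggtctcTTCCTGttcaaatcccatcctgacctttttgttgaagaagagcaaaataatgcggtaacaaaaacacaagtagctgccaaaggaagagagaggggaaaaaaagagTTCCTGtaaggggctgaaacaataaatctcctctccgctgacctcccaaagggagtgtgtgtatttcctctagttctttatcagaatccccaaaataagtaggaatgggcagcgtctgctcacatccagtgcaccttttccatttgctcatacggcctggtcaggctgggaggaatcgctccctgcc
Eng (chr3:36332029-36332328, plus strand): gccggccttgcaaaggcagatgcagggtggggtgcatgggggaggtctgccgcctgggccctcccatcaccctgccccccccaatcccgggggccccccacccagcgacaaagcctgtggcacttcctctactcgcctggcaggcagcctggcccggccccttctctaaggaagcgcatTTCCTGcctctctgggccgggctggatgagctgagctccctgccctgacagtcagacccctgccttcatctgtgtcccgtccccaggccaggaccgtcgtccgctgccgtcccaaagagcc
At least 1 of these cores was present in 3 of the 5 promoters, against 40% of all 33469 promoters of the same length. CAGGAA was in the promoters of Emcn and Eng and in 29.1% of all, and CCGGAA in that of Kdr and in 15% of all. The short core GGAA is in 95.8% of all promoters and in all 5 of these. The FOX motif TGTTTAC (3.78% of all) and the GATA motif AGATAA (11.6% of all) were in none of the 5, searched on both strands. A match describes the letters in this window only.

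Per unit of gene length, the 9 markers covered a wide range, and Eng was far above the others. Mean FPKM over the 6 libraries was 135.5 for Eng, 14.0 for Flt1, 9.49 for Kdr, 8.04 for Tek, 7.37 for Cdh5, 6.55 for Esam, 5.86 for Emcn, 4.59 for Tie1 and 1.10 for Vwf. The level of Eng was 9.69 times that of Flt1, and Tie1 was 4.18 times Vwf. The ranges over 6 libraries did not overlap between Eng and Flt1, Flt1 and Kdr, Kdr and Tek, or Tie1 and Vwf. The ranges of Tek, Cdh5, Esam and Emcn each overlapped that of the next gene in this order, although Tek was above Cdh5 in 6 of 6 libraries and Emcn above Tie1 in 6 of 6. By comparison, the cardiomyocyte marker Tnnt2 averaged 2423 FPKM, the fibroblast collagen Col1a1 1770 FPKM and the mural receptor Pdgfrb 65.3 FPKM.

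**Figure D1:**
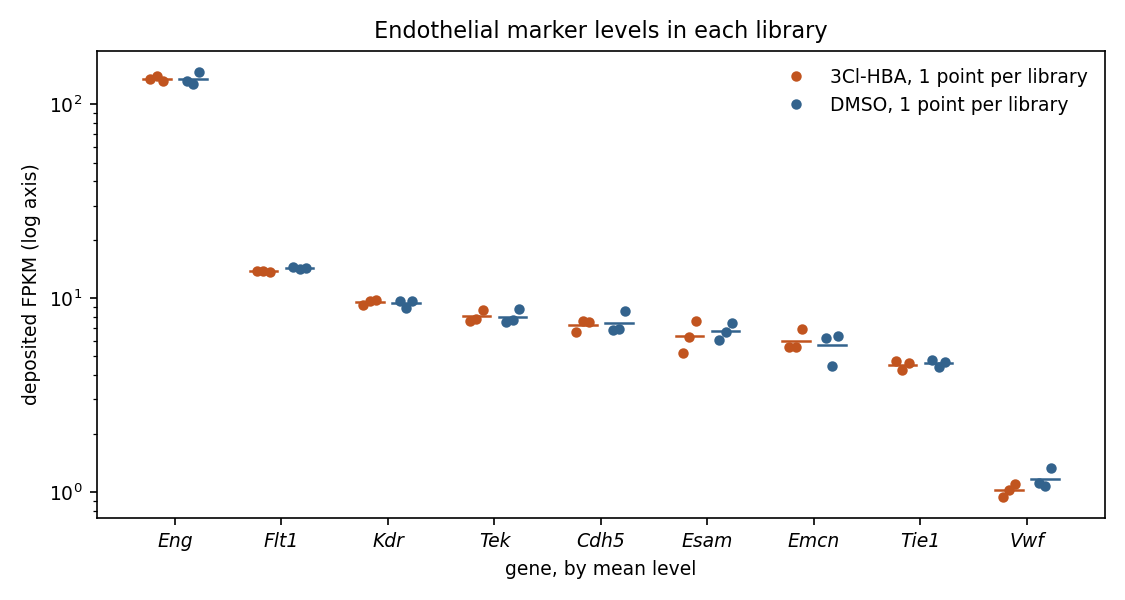
Deposited FPKM of the 9 endothelial markers on a log axis, genes in order of mean level, with 1 point per library for 3Cl-HBA (left) and DMSO (right) and a line at each group mean. Eng sits between 127.9 and 146.7 FPKM, Vwf between 0.946 and 1.33 FPKM, and the points of both treatments lie close together for each gene.

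None of the 9 markers passed the test of a difference between treatments. With edgeR's quasi-likelihood test across all genes, 0 of the 9 had a Benjamini-Hochberg adjusted p under 0.05, beside 0% of the 13903 genes tested (percent called 0), and 0 of 9 had an unadjusted p under 0.05, beside 5.11% of all genes. DESeq2 and limma-voom also called 0 of 9, with 0 at an unadjusted p under 0.05 in each. The log2 fold changes, 3Cl-HBA over DMSO, ran from -0.19 for Vwf to 0.080 for Emcn, 4 above 0 and 5 below, with a median of -0.026 beside -0.00052 over all genes tested. All 9 intervals (95%) excluded a change of 1.5-fold in either direction. The smallest adjusted p among the 9 was 0.984.

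The receptors for vascular endothelial growth factor were the most abundant markers after Eng. Kdr, which encodes VEGF receptor 2, the main signalling receptor (ENSRNOG00000046829, chromosome 14, 34727623 to 34787183, plus strand, in the deposited coordinates, for which no source names a build), had 57.9, 61.8 and 62.1 CPM after 3Cl-HBA, against 61.0, 56.4 and 61.5 CPM in DMSO. The groups overlapped, with a low library in each, and the log2 fold change was 0.024 (SE 0.067, 95% interval -0.11 to 0.16). Flt1, which encodes VEGF receptor 1, a tight-binding receptor that also acts as a trap for the ligand (ENSRNOG00000000940, chromosome 12, 9034308 to 9205905, plus strand), had 95.93, 96.20 and 94.97 CPM after 3Cl-HBA, against 100.4, 97.8 and 99.7 CPM in DMSO. Flt1 was the only 1 of the 9 whose groups did not overlap, all 3 treated libraries being lower, which was also so for 5.22% of all genes tested, while 5.24% had all 3 treated libraries higher and 10.5% did not overlap in either direction. The size of this gap was small, 95.7 ± 0.646 CPM after 3Cl-HBA and 99.3 ± 1.35 CPM in DMSO (SD, n = 3 each), and the log2 fold change was -0.053, with an SE of 0.057, a 95% interval of -0.17 to 0.061 and an edgeR adjusted p of 0.986. Its spread over the 6 libraries, a coefficient of variation of 2.23%, was below the 2.63% that counting error alone gives.

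The angiopoietin receptor pair had lower levels. Tek, which encodes TIE2, the receptor that binds angiopoietins (ENSRNOG00000008587, chromosome 5, 113725717 to 113852799, plus strand), had 34.7, 35.9 and 39.8 CPM after 3Cl-HBA, against 34.3, 34.9 and 40.4 CPM in DMSO. In each group 2 libraries were similar and replicate 3 was higher, and the log2 fold change was 0.014 (SE 0.083, 95% interval -0.15 to 0.18). Tie1, an orphan receptor that pairs with TIE2 (ENSRNOG00000020173, chromosome 5, 137294544 to 137321121, minus strand), had 21.5, 19.5 and 21.3 CPM after 3Cl-HBA, against 22.0, 20.2 and 21.6 CPM in DMSO. The groups overlapped, the log2 fold change was -0.036 (SE 0.098, 95% interval -0.23 to 0.16), and the coefficient of variation over 6 libraries, 4.56%, was below the counting error of 5.67%.

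Eng, which encodes endoglin, a co-receptor for TGF-beta and BMP ligands (ENSRNOG00000050190, chromosome 3, 11679530 to 11717485, plus strand), had 407.2, 425.8 and 402.9 CPM after 3Cl-HBA, against 398.6, 387.3 and 446.8 CPM in DMSO. The DMSO libraries held both the lowest and the highest of the 6 values, and the log2 fold change was 0.0039 (SE 0.049, 95% interval -0.095 to 0.10). It took 58.7% to 60.8% of the reads of the 9 markers after 3Cl-HBA and 59.1% to 60.4% in DMSO. Its coefficient of variation, 5.20%, exceeded its counting error of 1.28%.

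The junction genes varied more between libraries. Cdh5, which encodes VE-cadherin (ENSRNOG00000013324, chromosome 19, 1023683 to 1074365, minus strand), had 26.8, 30.9 and 30.4 CPM after 3Cl-HBA, against 27.5, 27.9 and 34.5 CPM in DMSO. Its highest value was in DMSO replicate 3 and its lowest in 3Cl-HBA replicate 1, and the log2 fold change was -0.026 (SE 0.092, 95% interval -0.21 to 0.16). Esam, an adhesion molecule of endothelial tight junctions (ENSRNOG00000033217, chromosome 8, 39997875 to 40008809, plus strand), had 10.4, 12.8 and 15.4 CPM after 3Cl-HBA, against 12.3, 13.5 and 15.0 CPM in DMSO. The treated libraries held both extremes for Esam, and the log2 fold change was -0.075 (SE 0.13, 95% interval -0.34 to 0.19). The coefficients of variation were 9.73% for Cdh5 and 13.9% for Esam, against counting errors of 4.79% and 7.19%.

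The least abundant markers by reads were Emcn and Vwf, and their intervals were the widest. Emcn, a surface sialomucin of capillaries and veins (ENSRNOG00000022910, chromosome 2, 242634399 to 242714182, plus strand), had 7.70, 7.77 and 9.61 CPM after 3Cl-HBA, against 8.66, 6.19 and 8.94 CPM in DMSO, from 90 to 151 reads per library. The groups overlapped, with the low value in DMSO replicate 2, and the log2 fold change was 0.080 (SE 0.16, 95% interval -0.24 to 0.40). Vwf, the clotting factor stored in endothelial granules (ENSRNOG00000019689, chromosome 4, 158088505 to 158219523, plus strand), had 8.31, 9.12 and 9.74 CPM after 3Cl-HBA, against 9.80, 9.49 and 11.7 CPM in DMSO. It had the lowest unadjusted p of the 9, 0.191, with means of 9.06 ± 0.715 CPM after 3Cl-HBA and 10.3 ± 1.22 CPM in DMSO (SD, n = 3 each) and a log2 fold change of -0.19, with an SE of 0.14, a 95% interval of -0.47 to 0.098 and an edgeR adjusted p of 0.984. The groups overlapped in a single pair, 3Cl-HBA replicate 3 being above DMSO replicate 2. Without DMSO replicate 3 the log2 fold change of Vwf was -0.093. No other row of the table overlaps the coordinates of any of the 9 genes.

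**Figure D2:**
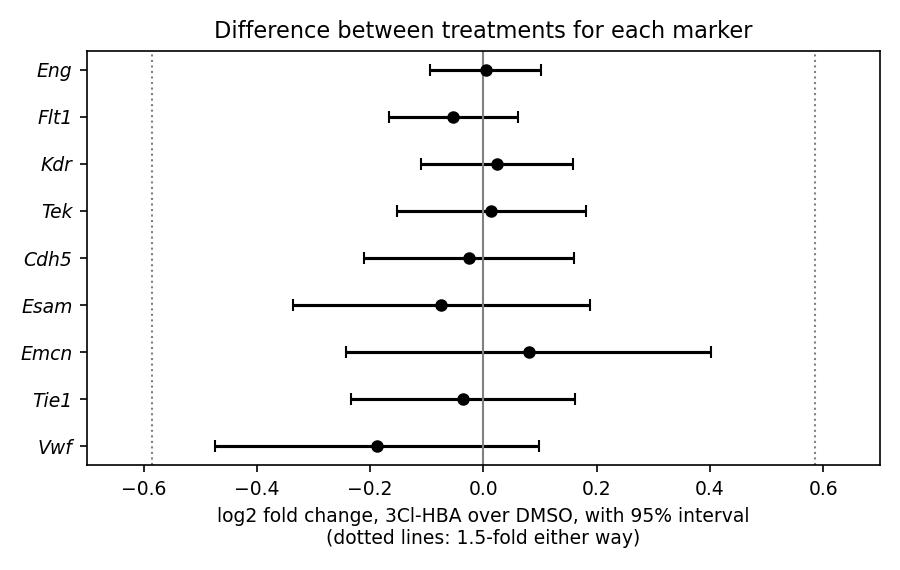
Log2 fold change, 3Cl-HBA over DMSO, of each of the 9 markers (points) with its 95% interval from edgeR (bars), and dotted lines at 1.5-fold in both directions. Every interval includes 0 and lies between the dotted lines, and the intervals widen from Eng (-0.095 to 0.10) to Emcn (-0.24 to 0.40).

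Summed over the 9 markers, the difference between treatments was smaller than the spread between libraries. The sum was 670.6, 699.8 and 686.0 CPM after 3Cl-HBA, against 674.5, 653.7 and 740.2 CPM in DMSO, or on average 685.5 ± 14.6 CPM with 3Cl-HBA and 689.5 ± 45.1 CPM with DMSO (SD, n = 3 each). The treated libraries lay inside the range of the DMSO libraries. Without Eng the sums were 263.4, 274.0 and 283.2 CPM after 3Cl-HBA, against 275.8, 266.4 and 293.4 CPM in DMSO. The 9 markers took 0.0674% to 0.0696% of the reads after 3Cl-HBA and 0.0655% to 0.0738% in DMSO. Set against the heart muscle cells, the sum was 25.02, 26.3 and 25.4 CPM per 1000 CPM of cardiomyocyte markers after 3Cl-HBA, against 25.4, 24.8 and 26.5 in DMSO.

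The markers tended to be high or low in the same libraries. Deviations of log2 CPM from each gene's mean over the 6 libraries were above 0 for 1, 3 and 7 of the 9 markers in 3Cl-HBA replicates 1 to 3, and for 5, 2 and 9 of 9 in DMSO replicates 1 to 3. The median deviation was -0.067, -0.026 and 0.038 after 3Cl-HBA, against 0.022, -0.069 and 0.14 in DMSO. DMSO replicate 3 was the highest library for 4 of the 9 markers, Cdh5, Tek, Eng and Vwf, and the lowest for 0, while 3Cl-HBA replicate 1 and DMSO replicate 2 were each the lowest for 3. Over all genes tested, 50.7% to 52.4% were above their mean in each library, and DMSO replicate 3 was the highest library for 19.5%.

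Pairs of markers are described by Pearson's r of log2 CPM over the 6 libraries, without a test, since the points share library and depth. The median r of the 36 pairs was 0.451, and 33 pairs were above 0, beside a median of -0.0013 and 49.9% above 0 over all pairs of the 13903 genes. With deviations from the group means, which removes any difference between treatments, the median was 0.555 and 32 of 36 were above 0. By Pearson r over the 6 libraries the highest pairs were Kdr with Emcn (r 0.857, Spearman's rho 0.829), Cdh5 with Tek (r 0.853, rho 0.886) and Cdh5 with Eng (r 0.846, rho 0.600). The order depends on the measure: with deviations from the group means, Tek with Vwf (0.955) and Cdh5 with Vwf (0.941) were above Kdr with Emcn (0.849). Over the 6 libraries, Cdh5 had a median r of 0.677 with the other 8 markers, Tek 0.622, Vwf 0.582, Kdr 0.525, Eng 0.499, Emcn 0.451 and Esam 0.424. Tie1 and Flt1 followed the others least, with medians of 0.134 and 0.102, and both had a spread below counting error. Part of the agreement rests on DMSO replicate 3: without it the median r was 0.319, with 24 of 36 pairs above 0. Without DMSO replicates 2 and 3, whose median deviations over the markers were farthest from 0 (-0.0685 and 0.142), it was 0.336 over the 4 libraries left. This choice depends on the measure: 3Cl-HBA replicate 1 had a median of -0.0665, and its mean deviation of -0.097 was farther from 0 than the -0.0815 of DMSO replicate 2.

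**Figure D3:**
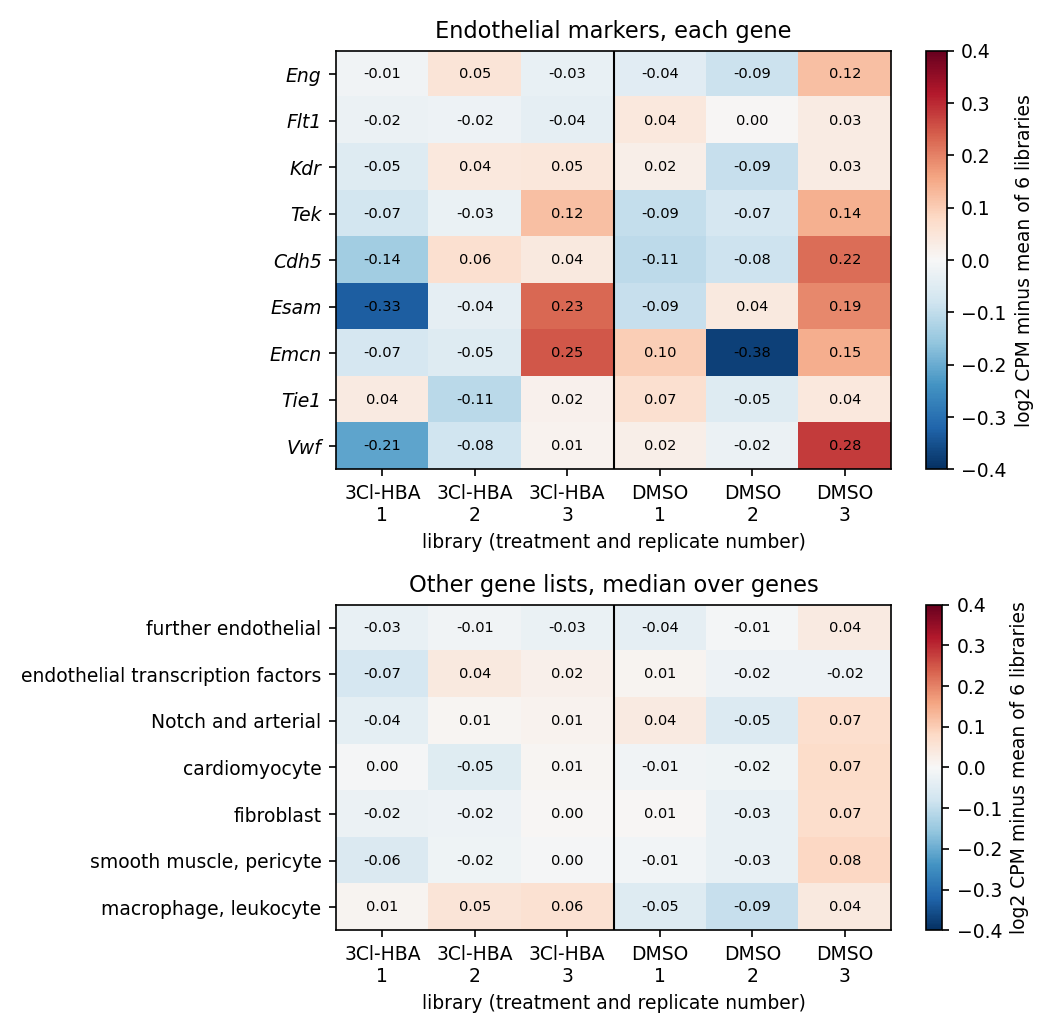
Log2 CPM minus the mean of the 6 libraries, red above and blue below, for each endothelial marker (upper panel) and as the median over the genes of 7 other lists (lower panel), with 3Cl-HBA left of DMSO. DMSO replicate 3 is above 0 for all 9 markers and also for the cardiomyocyte, fibroblast and smooth muscle and pericyte lists (medians 0.072, 0.070 and 0.082).

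In DMSO replicate 3, markers of several other heart cells were high together with the endothelial markers, as were the Notch and arterial genes. The Notch and arterial list was not drawn up to mark another cell type, and which cells its transcripts came from was not tested. In DMSO replicate 3, 11 of 12 cardiomyocyte markers, 9 of 10 fibroblast markers, 9 of 10 smooth muscle and pericyte markers and 10 of 11 Notch and arterial genes were above their mean, but 18 of 28 further endothelial genes and 9 of 21 endothelial transcription factors. The mean pattern of the 9 markers had a median r of 0.514 with cardiomyocyte markers, 0.614 with fibroblast markers, 0.614 with smooth muscle and pericyte markers and 0.612 with Notch and arterial genes. The medians were 0.228 with further endothelial genes, 0.143 with endothelial transcription factors and 0.209 with macrophage and leukocyte markers, beside 0.029 over all genes tested, and 18.3% of all genes had an r above 0.5. Relative to cardiomyocyte markers, DMSO replicate 3 was still the highest library, at 26.5, against 26.3 in 3Cl-HBA replicate 2. The medians for epicardial, proliferation, erythroid and Schwann cell and neuron markers were 0.042, -0.17, -0.20 and -0.36 in that order. Much of the likeness to other heart cells, and to the Notch and arterial genes, rests on DMSO replicate 3. Over the 5 libraries left without it, the median r was 0.028 with cardiomyocyte markers, 0.327 with fibroblast markers, 0.388 with smooth muscle and pericyte markers and 0.247 with Notch and arterial genes. Without that library it was 0.067 with further endothelial genes, 0.317 with endothelial transcription factors and 0.038 with macrophage and leukocyte markers, beside 0.012 over all genes tested. In 3Cl-HBA replicate 3, where 7 of the 9 markers were above their mean, so were 8 of 12 cardiomyocyte, 5 of 10 fibroblast and 4 of 10 smooth muscle and pericyte markers. These r share the same libraries and are given without a test, and the part of the other cell types in the agreement was not tested.

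**Figure D4:**
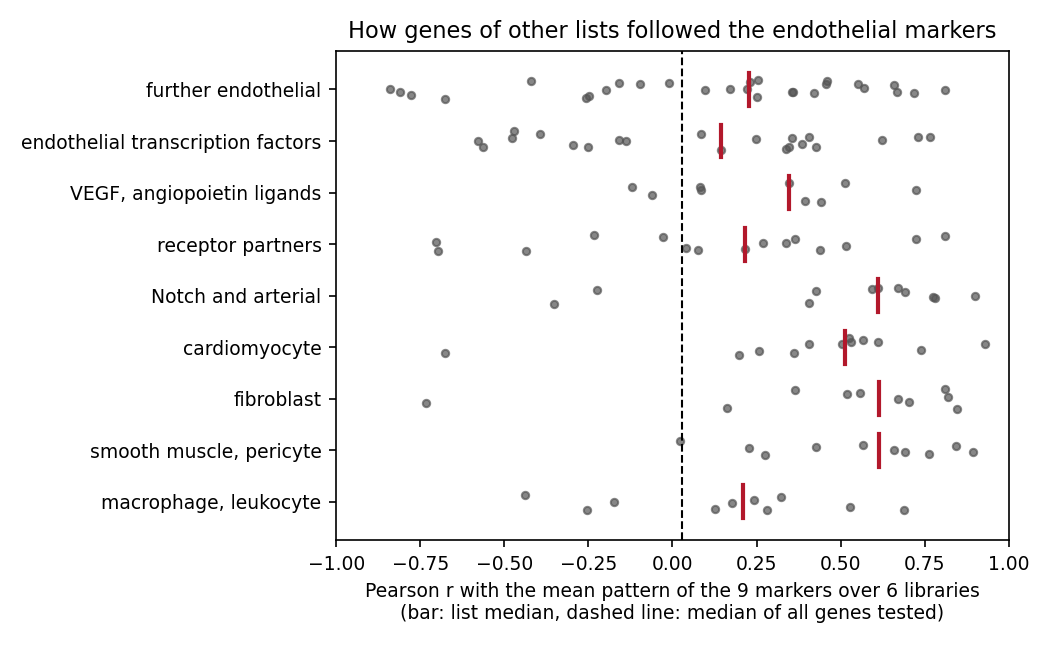
Pearson r, over the 6 libraries, between log2 CPM of each tested gene (points) of 9 lists and the mean pattern of the 9 endothelial markers, with list medians as bars and the median of all genes tested (0.029) as a dashed line. Medians of the Notch and arterial, cardiomyocyte, fibroblast and smooth muscle and pericyte lists lie at 0.514 to 0.614. Those of further endothelial genes (0.228) and endothelial transcription factors (0.143) lie to the left, and the lists differ in level.

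Long genes as a class were low in 3Cl-HBA replicate 1, where 8 of the 9 markers were below their mean. With genes averaging 5 CPM or more split into 4 length classes of nearly equal size, the longest class (3854 to 28192 bases), which holds 6 of the 9 markers, had a median deviation of -0.044 in 3Cl-HBA replicate 1 and 0.035 in DMSO replicate 1, against 0.047 and -0.034 for the shortest class. In DMSO replicate 3 the medians were 0.00079 for the longest and 0.017 for the shortest class. The longest class had a median r of 0.14 with the mean pattern of the markers and the shortest -0.039. In 3Cl-HBA replicate 1, markers in the longest class deviated by -0.139 (Cdh5), -0.0531 (Kdr), -0.0229 (Flt1), -0.0741 (Tek), 0.0366 (Tie1) and -0.212 (Vwf). Esam was the lowest marker there, at -0.329, while its class (1657 to 2526 bases) had a median of 0.021. Emcn, in the shortest class, was at -0.0665, and Eng, in the class of 2527 to 3853 bases, at -0.0134. Counting error was 7.19% for Esam, 9.18% for Emcn and 1.28% for Eng. The part of length in the low marker values of 3Cl-HBA replicate 1 was not tested. The 5 genes whose levels were most like the mean pattern of the markers, among 10659 with a symbol and at least 5 CPM, were Proser3, the deubiquitinase gene Usp11, Thbs1, which encodes a secreted matrix glycoprotein, the ubiquitin ligase gene Arel1 and the autophagy gene Wdr45, with r of 0.978 to 0.987 over 6 libraries. These 5 genes were picked for the highest r among 10659 over only 6 libraries, so high r come with the choice, and shared regulation was not tested. Thbs1, the most abundant of them, had 1394, 1444 and 1455 CPM after 3Cl-HBA, against 1435, 1392 and 1523 CPM in DMSO.

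Further endothelial genes were detected unevenly. Of 32 listed, 28 were tested and 0 passed with edgeR, and 2 had an unadjusted p under 0.05, beside 5.11% of all genes tested. The median log2 fold change was -0.015, with 12 above 0 and 16 below, and it was 0.015 without DMSO replicate 3. The 4 most abundant were the caveolar protein Cav1 (322.3 ± 13.4 CPM after 3Cl-HBA and 301.2 ± 1.87 CPM in DMSO), the water channel Aqp1 (186 ± 9.35 CPM with 3Cl-HBA and 199.7 ± 6.88 CPM with DMSO), the adhesion molecule Mcam (164 ± 7.18 CPM with 3Cl-HBA and 165 ± 4.89 CPM with DMSO) and the thrombin receptor Thbd (86.8 ± 2.29 CPM with 3Cl-HBA and 87.1 ± 3.27 CPM with DMSO; SD, n = 3 each). Cav1 and Esm1, a secreted proteoglycan of sprouting vessels, had the unadjusted p under 0.05, with log2 fold changes of 0.098 (SE 0.047) and 0.23 (SE 0.11) and edgeR adjusted p of 0.959 each. Claudin-5, a tight junction protein typical of endothelium (Cldn5), was listed at 0 reads in all 6 libraries, which allows up to 0.175 to 0.204 CPM after 3Cl-HBA and 0.206 to 0.227 CPM in DMSO at 3 reads per library, a limit that covers counting error only. The receptor Robo4 had 0, 0 and 2 reads after 3Cl-HBA, against 1, 0 and 0 in DMSO, and the receptor-modifying protein Ramp2 had 3, 8 and 3 reads after 3Cl-HBA, against 4, 5 and 0 in DMSO. Robo4, Ramp2, Cldn5 and Esm1 are named after their values were seen.

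Transcription factors of endothelial cells were all measurable. All 21 were tested and 0 passed, beside 0% of all genes tested. An unadjusted p under 0.05 was found for 0 of 21, beside 5.11% of all genes tested. Log2 fold changes were above 0 for 11 of 21, beside 49.8% of all genes tested, with a median of 0.0021. The hypoxia-regulated factor Epas1 had 303 ± 16.6 CPM after 3Cl-HBA and 297 ± 10.8 CPM in DMSO, and the ETS factors were led by Ets1 (109 ± 2.30 CPM with 3Cl-HBA and 110.04 ± 2.72 CPM with DMSO), Elk3 (64.6 ± 0.194 CPM with 3Cl-HBA and 62.8 ± 0.828 CPM with DMSO) and Ets2 (39.2 ± 3.03 CPM with 3Cl-HBA and 40.0 ± 1.64 CPM with DMSO). Of the factors more restricted to endothelium, Erg had 6.38 ± 0.791 CPM with 3Cl-HBA and 6.62 ± 1.92 CPM with DMSO. Sox18 had 8.36 ± 1.84 CPM with 3Cl-HBA and 8.36 ± 1.42 CPM with DMSO, and both were named after their values were seen. Mean FPKM over the 6 libraries was 2.71 for Erg and 5.12 for Sox18, against 10.95 for Ets2 and 61.3 for Epas1.

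Ligands of the marker receptors were present in the same cultures. Of 12 listed ligands, 9 were tested and 0 passed, with a median log2 fold change of -0.011. None had an unadjusted p under 0.05, beside 5.11% of all genes tested. Vegfa, the ligand of Kdr and Flt1, had 589.5 ± 21.0 CPM after 3Cl-HBA and 589.8 ± 12.96 CPM in DMSO, and its log2 fold change was -0.00062, with an SE of 0.044. Vegfd, a ligand mainly of lymphatic endothelium, had 82.3 ± 2.04 CPM with 3Cl-HBA and 85.4 ± 6.13 CPM with DMSO, Vegfb, a ligand of Flt1, 55.1 ± 6.77 CPM with 3Cl-HBA and 48.0 ± 7.12 CPM with DMSO, and Pgf, also a ligand of Flt1, 51.6 ± 0.989 CPM with 3Cl-HBA and 49.8 ± 2.05 CPM with DMSO. For Vegfb the log2 fold change was 0.20 (SE 0.098, unadjusted edgeR p 0.0556, adjusted p 0.959). Of the angiopoietin genes, Angpt4 had 29.4 ± 1.47 CPM with 3Cl-HBA and 29.7 ± 2.43 CPM with DMSO. Angpt1, whose product activates TIE2, had 24.8 ± 2.47 CPM with 3Cl-HBA and 27.3 ± 2.53 CPM with DMSO. Angpt2, whose product can block it, had 21.6 ± 0.603 CPM with 3Cl-HBA and 23.2 ± 0.856 CPM with DMSO. The log2 fold changes were -0.017 (SE 0.088) for Angpt4, -0.14 (SE 0.095) for Angpt1 and -0.10 (SE 0.095) for Angpt2, and all 3 were named after their values were seen. Bmp10 and Gdf2, ligands that endoglin helps to bind, were too low to be tested.

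Among 15 receptor partners, 0 passed and 2 had an unadjusted p under 0.05, both lower after 3Cl-HBA, beside 5.11% of all genes tested. The median log2 fold change of the list was -0.034, and it ran from -0.062 without DMSO replicate 2 to 0.0043 without DMSO replicate 1. The VEGF co-receptor Nrp1 had 255 ± 8.70 CPM with 3Cl-HBA and 264 ± 7.12 CPM with DMSO, and Nrp2, of the same family, 197 ± 1.68 CPM with 3Cl-HBA and 206 ± 9.20 CPM with DMSO. The BMP receptor Bmpr2 had 128 ± 10.7 CPM with 3Cl-HBA and 142 ± 6.83 CPM with DMSO, and the TGF-beta receptor Tgfbr2 128 ± 4.48 CPM with 3Cl-HBA and 135 ± 1.18 CPM with DMSO. The lower ones were Bmpr2 (log2 fold change -0.15, SE 0.057, unadjusted p 0.010, edgeR adjusted p 0.959) and Ptprb, a phosphatase that acts on TIE2 (12.2 ± 0.969 CPM with 3Cl-HBA and 15.1 ± 1.65 CPM with DMSO, log2 fold change -0.31, SE 0.12, unadjusted p 0.015, edgeR adjusted p 0.959), Ptprb being named after its values were seen. The 11 Notch and arterial genes gave 0 calls and 0 at an unadjusted p under 0.05, beside 5.11% of all genes tested, with a median of -0.029. The most abundant were the netrin receptor Unc5b (608 ± 11.4 CPM with 3Cl-HBA and 627 ± 12.6 CPM with DMSO), the connexin Gja5 (128 ± 1.14 CPM with 3Cl-HBA and 125 ± 6.98 CPM with DMSO), the receptor Notch1 (60.5 ± 2.64 CPM with 3Cl-HBA and 61.8 ± 4.62 CPM with DMSO) and the chemokine Cxcl12 (57.7 ± 1.48 CPM with 3Cl-HBA and 56.0 ± 1.58 CPM with DMSO).

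Of 11 venous, lymphatic and endocardial genes, 8 were tested and 0 passed, with a median log2 fold change of 0.013. Among the 8, 1 had an unadjusted p under 0.05, beside 5.11% of all genes tested. That gene, Hapln1, encodes a matrix link protein and had a log2 fold change of 0.28 (SE 0.12, unadjusted p 0.0294, edgeR adjusted p 0.959). Pdpn, a lymphatic glycoprotein, had 72.5 ± 3.32 CPM after 3Cl-HBA and 68.8 ± 2.98 CPM in DMSO, the venous receptor Ephb4 66.5 ± 0.902 CPM with 3Cl-HBA and 67.5 ± 1.68 CPM with DMSO, the scavenger receptor Stab1 54.2 ± 2.61 CPM with 3Cl-HBA and 53.2 ± 2.93 CPM with DMSO, and the natriuretic peptide clearance receptor Npr3, an endocardial gene, 47.3 ± 2.10 CPM with 3Cl-HBA and 47.3 ± 5.84 CPM with DMSO. The 10 genes of adhesion and activated endothelium gave 0 calls and 0 at an unadjusted p under 0.05, beside 5.11% of all genes tested. Of their log2 fold changes 8 were above 0, beside 49.8% of all genes tested, and the median was 0.042. Among the most abundant were the plasminogen activator Plat (178 ± 10.0 CPM with 3Cl-HBA and 168 ± 19.0 CPM with DMSO), the adhesion molecule Icam1 (107 ± 1.29 CPM with 3Cl-HBA and 102 ± 2.88 CPM with DMSO) and the tissue factor gene F3 (94.2 ± 7.96 CPM with 3Cl-HBA and 93.1 ± 2.18 CPM with DMSO).

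Markers of other cells that could share these transcripts were measured in the same libraries. The 10 macrophage and leukocyte markers summed to 376 to 388 CPM after 3Cl-HBA and 350 to 379 CPM in DMSO, with 8 of 10 log2 fold changes above 0, beside 49.8% of all genes tested, a median of 0.11 and 0 calls. That median was 0.054 without DMSO replicate 2. Their 4 most abundant members were the lysozyme gene Lyz2 (188 ± 4.01 CPM with 3Cl-HBA and 182 ± 10.6 CPM with DMSO), the lysosomal marker Cd68 (71.1 ± 4.43 CPM with 3Cl-HBA and 65.9 ± 3.36 CPM with DMSO), the growth factor receptor Csf1r (39.6 ± 2.70 CPM with 3Cl-HBA and 39.0 ± 5.28 CPM with DMSO) and the complement gene C1qa (21.0 ± 1.11 CPM with 3Cl-HBA and 19.2 ± 1.88 CPM with DMSO). The 7 platelet and megakaryocyte markers, relevant to Vwf, summed to 41.4 to 43.7 CPM after 3Cl-HBA and 42.7 to 52.8 CPM in DMSO, nearly all of it Pf4 (39.9 ± 0.682 CPM with 3Cl-HBA and 44.6 ± 4.67 CPM with DMSO), while Gp1bb and Ppbp were at 0 reads in all 6 libraries and Gp9 and Gp6 had 15 and 8 reads in all. In DMSO replicate 3, where Vwf was highest, Pf4 was also highest at 49.0 CPM. The platelet and megakaryocyte markers Itga2b and Gp1ba averaged only 2.22 and 0.709 CPM over the 6 libraries. The part of platelet RNA in the level of Vwf was not tested. Fibroblast markers, relevant to Eng, summed to 15604 to 15914 CPM after 3Cl-HBA and 15507 to 16479 CPM in DMSO, and smooth muscle and pericyte markers to 2848 to 2900.4 CPM after 3Cl-HBA and 2802 to 3033 CPM in DMSO. The remaining lists, of cardiomyocyte, fibroblast, smooth muscle and pericyte, platelet, erythroid, Schwann cell and neuron, epicardial and proliferation markers, also gave 0 calls in the test over all 6 libraries, with median log2 fold changes of -0.0043, -0.029, -0.013, -0.16, 0.014, 0.13, 0.029 and 0.021 in that order. The platelet median, over 3 tested genes, turned to 0.15 without 3Cl-HBA replicate 2 and to 0.048 without DMSO replicate 3, and 1 erythroid gene was called without 3Cl-HBA replicate 3. In these lists, with 12, 10, 10, 3, 4, 4, 6 and 7 genes tested in that order, 5 genes had an unadjusted p under 0.05, beside 5.11% of all genes tested. They were the calcium channel gene Ryr2 and the myosin light chain gene Myl2 (log2 fold changes of -0.17 and -0.14), Pf4 (-0.16), the haemoglobin gene Hba-a1 (0.49) and the replication gene Mcm3 (0.18), with edgeR adjusted p of 0.845 to 0.959. These genes and Hapln1 were named after their values were seen.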

How the data were processed

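Libraries came from a KAPA RiboErase kit, so ribosomal RNA was depleted, and were read on an Illumina HiSeq instrument, per the labels' protocols, where DESeq2 is given as the tool of analysis. No source used here names an aligner, a counting program, a strand setting or a build. The deposited table holds whole-number read counts per gene and library, not normalised. It also holds FPKM deposited by the authors, equal to the count per length and library total within a relative gap of 8.2e-08. Gene length is the authors' deposited value.

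Columns were assigned through the treatment protocol and the replicate number in the titles. Counts of all genes went into edgeR 4.0.16 (R 4.3.3). Low genes were dropped by filterByExpr at a minimum count of 10, totals were scaled by TMM, and differences were tested with the robust quasi-likelihood fit and test, without a block. P-values were adjusted by Benjamini-Hochberg over 13903 genes and called under 0.05. The fits were repeated with DESeq2 1.42.0 and with voom of limma 3.58.1. Log2 CPM used a prior count of 2. An exact permutation test of 3 against 3 cannot go below 0.1 and was not used. Counting error is the mean over libraries of 1 over the square root of the reads. The median biological coefficient of variation was 6.47%. Pairs of libraries within a group differed by more than sampling noise (chi-square per degree of freedom 2.69 to 4.44).

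The members and lists were chosen with earlier results of these data known. The naming rule takes the members, up to 4 genes of each of 16 lists (called, then most abundant) and the 5 genes of most like pattern. For lists of heart cells other than macrophages and leukocytes, sums and medians stand in place of single genes. A gene that the rule names in the adhesion list is not reported here. Of 196 listed symbols, 192 were matched, 1 of them (Col1a2) through a RefSeq gene number. Procedures were tested on simulated counts.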

Additional observations from a re-analysis of the deposited data

How the results depend on the processing

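Of 99 values of single markers recomputed under 11 alternatives, 86 kept their direction and 13 turned, all 13 when a library was left out, and adjusted p stayed between 0.817 and 1. Over the 6 leave-one-out fits, log2 fold changes ran from -0.0847 to 0.0831 for Cdh5, -0.0159 to 0.0553 for Kdr, -0.0470 to 0.0880 for Tek, -0.0721 to 0.00943 for Tie1, -0.0377 to 0.0648 for Eng, -0.0740 to 0.171 for Emcn and -0.224 to 0.0518 for Esam, while those of Flt1 (-0.0647 to -0.0454) and Vwf (-0.248 to -0.0929) stayed below 0. The markers' median ran from -0.0721 to 0.0434, the last without DMSO replicate 3, and was also above 0 without 3Cl-HBA replicate 1 (0.0339). No marker was called under any of the 11. Over all genes, 2 were called with no filter on low counts, 1 with limma-voom and 0 to 8 with a library left out (8 without DMSO replicate 3), and 0 with library totals alone or DESeq2. Of the 16 related lists, 11 had a median that turned in at least 1 leave-one-out fit, and 1 under another alternative. Without Eng the summed level averaged 273.5 CPM after 3Cl-HBA and 278.5 CPM in DMSO. The median r between markers ran from 0.319 to 0.538 with a library left out, and was 0.434 with library totals alone and 0.442 with DESeq2 size factors. Same-numbered libraries had deviations with r of -0.0692, -0.0438 and -0.0447, against -0.0147 to 0.0595 for differently numbered libraries of the 2 groups. With 3 libraries per group these r cannot decide whether same-numbered libraries shared a preparation, which the labels do not state. The summed markers without Eng were highest in replicate 3 of both groups (283.2 CPM after 3Cl-HBA and 293.4 CPM in DMSO). With Eng the highest sum after 3Cl-HBA was in replicate 2 (699.8 CPM). With a replicate block, 0 genes and 0 markers were called and the markers' median was -0.0244. The likeness of other lists without DMSO replicate 3, and the agreement without DMSO replicates 2 and 3, were chosen after seeing the data. The cause of these shifts was not tested. Depth limits Emcn and Vwf most, with counting errors of 9.18% and 8.37%.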
